A study of Mus musculus with 7 samples.

Results

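The endothelin 1 pathway of the lower jaw and its HAND targets were examined in ChIP-seq (sequencing of immunoprecipitated chromatin) of MOZ, a histone lysine acetyltransferase encoded by Kat6a. The set holds 10 genes, the ligand gene Edn1, the protease genes Furin and Ece1, the receptor gene Ednra, the G protein genes Gnaq and Gna11, the phospholipase gene Plcb3, and the transcription factor genes Mef2c, Hand1 and Hand2. All 10 were found by symbol among the 27179 genes of the deposited count table. The arches, the first pair and the second, were taken at E10.5 from C57BL/6 embryos, and an anti-V5 antibody was used. The Kat6a-V5 group (3 libraries, V5 in the plots) was homozygous for a Moz allele whose product ends in a Flag-V5-BIO tag, and such mice are viable and fertile according to the series description. The wild-type (WT) group (3 libraries) had no V5 epitope and was immunoprecipitated with the same antibody as negative control, and 1 input library from tagged arches had no antibody. The labels do not tell separate embryos from pools or repeated libraries, so each p-value measures the spread between libraries, which may be technical. Since the values count DNA fragments and not transcripts, marker genes cannot check the tissue, and they cannot check the tag either.

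Endothelin 1 is secreted by the epithelium, the core mesoderm and the endoderm of the arches. Its precursor is cut by furin and then by endothelin-converting enzyme 1, and the mature peptide binds the endothelin A receptor on neural crest cells. The receptor couples to the G proteins Gq and G11, which activate phospholipase C beta, and the signal reaches a set of transcription factor genes that give the lower jaw its identity. MEF2C and HAND2 act in this program, and MOZ is known for its own part in craniofacial development and for acetylation of histone H3.

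The deposited values are reads counted per gene, mostly over the whole span with introns. The filter on low counts kept 7 of the 10 genes among 14575, leaving out Edn1, Hand1 and Hand2. Library totals ranged from 806648 to 3286602 counts in the Kat6a-V5 group and from 1288732 to 2504595 in the WT group, and the input had 3488745. The 10 genes together took 0.0522% to 0.0690% of the counts in the Kat6a-V5 libraries, 0.0564% to 0.0713% in the WT libraries and 0.0438% in the input. WT replicate 2 stood apart from the other 6 libraries in chromosome X genes, with 2.77% of its counts against 3.94% to 4.51%. All 10 genes lie on autosomes, and some of the values below are also given without this library.

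No gene of the set passed the test between Kat6a-V5 and WT ChIP. Of 7 genes with enough counts for edgeR's quasi-likelihood test, 0 passed an adjusted p of 0.05 and 0 had an unadjusted p under 0.05. Over all 14575 tested genes 0.0% were called higher in Kat6a-V5 and 0.0% lower, with 4.12% at an unadjusted p under 0.05. At that unadjusted level 600 genes passed. DESeq2 and edgeR's likelihood ratio test called 0 genes of the whole table, limma-voom called 4 and the fit without a filter on low counts called 9, none of them in the set. Of the 7, 3 had a positive log2 fold change (Kat6a-V5 over WT) and 4 a negative one, with a median of -0.04, beside 52.0% positive and a median of 0.02 over all tested genes. The median of the 7 had no stable sign, since it was 0.30 without WT replicate 2, 0.04 without WT replicate 3 and -0.22 without WT replicate 1. In Plcb3 the lowest Kat6a-V5 value exceeded the highest WT value, and in Ednra the highest Kat6a-V5 value was under the lowest WT value. Such a separation was found upward in 4.83% and downward in 5.27% of all tested genes, and 1 of 7 in each direction is too few to be set apart from those shares.

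The start regions of 4 genes are shown, chosen by their whole-gene values or their place in the pathway. Plcb3 and Ednra are those whose groups did not overlap, Ece1 had the smallest p, and Hand2 is the target at the end of the pathway. Each window runs from 250 bases before to 50 bases after the RefSeq start site (GRCm38.p6, the assembly behind mm10), 5′ to 3′ on the gene's strand. Capitals mark each CG dinucleotide, because MOZ has a winged-helix domain known to bind unmethylated CpG DNA. The windows are chr19:6969765-6970064 (minus strand) for Plcb3, chr4:137861987-137862286 (plus strand) for Ece1, chr8:77724403-77724702 (minus strand) for Ednra and chr8:57320733-57321032 (plus strand) for Hand2.
Plcb3: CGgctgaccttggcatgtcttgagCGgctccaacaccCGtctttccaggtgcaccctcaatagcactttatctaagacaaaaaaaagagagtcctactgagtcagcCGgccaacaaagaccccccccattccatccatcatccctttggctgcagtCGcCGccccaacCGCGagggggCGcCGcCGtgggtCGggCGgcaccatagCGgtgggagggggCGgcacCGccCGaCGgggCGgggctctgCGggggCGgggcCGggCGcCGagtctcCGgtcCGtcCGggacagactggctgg
Ece1: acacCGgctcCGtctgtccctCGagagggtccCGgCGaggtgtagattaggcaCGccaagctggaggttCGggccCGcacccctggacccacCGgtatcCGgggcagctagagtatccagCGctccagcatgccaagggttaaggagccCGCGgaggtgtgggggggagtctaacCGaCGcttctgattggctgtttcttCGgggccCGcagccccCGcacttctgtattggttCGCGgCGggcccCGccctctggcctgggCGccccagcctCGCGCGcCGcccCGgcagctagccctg
Ednra: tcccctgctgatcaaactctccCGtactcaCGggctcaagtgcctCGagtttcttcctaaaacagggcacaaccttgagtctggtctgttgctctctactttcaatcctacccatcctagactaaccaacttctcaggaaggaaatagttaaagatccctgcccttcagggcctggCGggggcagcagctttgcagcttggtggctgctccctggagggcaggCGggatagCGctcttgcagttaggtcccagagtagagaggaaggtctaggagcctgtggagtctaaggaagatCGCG
Hand2: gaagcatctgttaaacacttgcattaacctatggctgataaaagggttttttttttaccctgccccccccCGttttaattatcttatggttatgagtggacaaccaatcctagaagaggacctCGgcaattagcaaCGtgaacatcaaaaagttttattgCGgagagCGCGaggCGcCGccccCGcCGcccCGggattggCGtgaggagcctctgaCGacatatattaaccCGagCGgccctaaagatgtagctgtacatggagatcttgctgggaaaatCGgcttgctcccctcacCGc

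Plcb3 held 27 CpG in its window and Ece1 held 28, against 8 in Ednra and 17 in Hand2. Windows were found for 9 of the 10 genes, all but Hand1, and the other counts were 48 in Gna11, 39 in Gnaq, 11 in Edn1, 7 in Furin and 1 in Mef2c. The median over the windows of 27025 genes was 7, so 7 of the 9 lay above it. The CpG count did not order the fold changes. Gna11 and Gnaq, with the richest windows, had log2 fold changes of -0.04 and -0.28, while Plcb3, with 27, had 0.82. Reads before a gene are not counted, so a signal upstream of the start site would not be in these values. The Plcb3 window lies 5192 bp inside the RefSeq span, and whether its upstream bases were counted is not given in the sources used here.

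**Figure D1:**
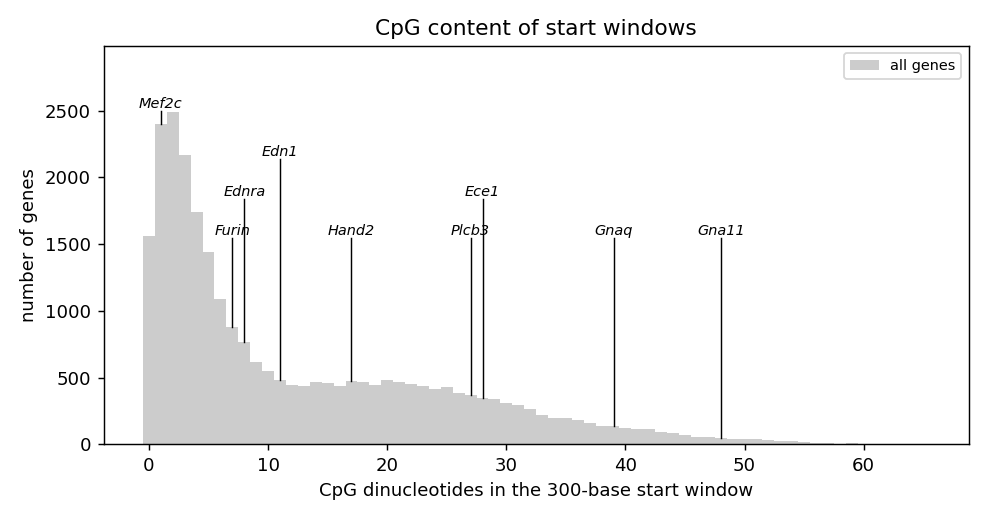
Histogram of the number of CpG dinucleotides (x axis) in the 300-base start window of 27025 genes (y axis, number of genes), with lines at the 9 genes of the set that have a window. Mef2c, at 1, sits in the peak of CpG-poor windows, and Gnaq and Gna11, at 39 and 48, sit in the upper tail.

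Motifs were searched in the same windows on both strands, and no pair of matches in these 9 windows overlapped. CANNTG, the E-box that HAND and TWIST proteins bind as dimers, was found in 5 of 9 windows (Furin, Ednra, Plcb3, Mef2c and Hand2), and in 72.1% of all windows. The MEF2 consensus was found in 0 of 9 and in 3.29% of all windows. TATAAA was found in 2 of 9 (Furin and Mef2c) and in 14.2% of all, CCAAT in 6 of 9 and in 38.0%, AGATAA (known as the GATA motif) in 3 of 9 (Edn1, Plcb3 and Hand2) and in 11.4%, and TGANTCA, an AP-1 motif, in 1 of 9 (Plcb3) and in 7.92%. In Hand2 the E-boxes lay at bases -246 to -241 and -235 to -230 from the start site.

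Edn1, the ligand gene (GeneID 13614, chromosome 13, 42301476 to 42307990), had 2, 14 and 13 counts in Kat6a-V5 replicates 1 to 3, 5, 20 and 6 in WT replicates 1 to 3, and 16 in the input. In counts per 1e6 counts of the library (CPM) this was 2.48, 12.3 and 3.96 in Kat6a-V5 and 3.88, 15.1 and 2.40 in WT. Replicate 2 was the high library in either group, and the groups overlapped fully. Edn1 was under the count filter, and a two-sided exact permutation test of its CPM gave p = 0.9, where 0.1 is the smallest p that 3 against 3 libraries allow. The log2 ratio of mean CPM was -0.16, and it turned positive without Kat6a-V5 replicate 1 (0.18), Kat6a-V5 replicate 3 (0.09) or WT replicate 2 (0.95).

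Furin, the proprotein convertase gene (GeneID 18550, chromosome 7, 80389194 to 80405441), had 10, 26 and 45 counts in Kat6a-V5 against 4, 32 and 44 in WT, with 79 in the input. WT replicate 1 was low, at 3.10 CPM against 17.6 and 24.1 in the other WT libraries, and the Kat6a-V5 libraries lay inside that range at 12.4 to 22.8. The log2 fold change was 0.14 (SE 0.70, adjusted p = 0.999 in edgeR). It was -0.33 without WT replicate 1 and -0.16 without Kat6a-V5 replicate 2, and it was 0.63 without WT replicate 2.

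Ece1, the converting enzyme gene (GeneID 230857, chromosome 4, 137862237 to 137965229), came nearest to the threshold of all genes in the set. It had 134, 194 and 103 CPM in Kat6a-V5, 90.0, 126 and 83.8 in WT and 110 in the input, from 108 to 337 counts per ChIP library. Kat6a-V5 replicates 1 and 2 lay above every WT library, and Kat6a-V5 replicate 3, the deepest ChIP library, lay inside the WT range. The means were 144 ± 46.5 CPM in Kat6a-V5 and 99.9 ± 22.7 in WT (SD, n = 3 each). The log2 fold change of 0.55 (SE 0.27) had an unadjusted p of 0.0563 and an edgeR adjusted p of 0.980. It was 0.28 without Kat6a-V5 replicate 2, 0.74 without WT replicate 2 and 0.77 without Kat6a-V5 replicate 3. The 3 tested genes whose log2 CPM followed Ece1 most closely over the 7 libraries were Dpp9 (Pearson r = 0.996), Hvcn1 (0.979) and Slc22a18 (0.975), out of 14574 searched. This is a description over 7 libraries of unequal depth and carries no test.

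Ednra, the endothelin A receptor gene (GeneID 13617, chromosome 8, 77663029 to 77724452), had 40, 56 and 178 counts in Kat6a-V5, 93, 122 and 173 in WT and 189 in the input. That was 49.6, 49.2 and 54.2 CPM in Kat6a-V5 and 72.2, 91.9 and 69.1 in WT. The Kat6a-V5 values lay close together and all below the lowest WT value. The means were 51.0 ± 2.76 CPM in Kat6a-V5 and 77.7 ± 12.4 in WT (SD, n = 3 each), a log2 fold change of -0.58 (SE 0.32, adjusted p = 0.980 in edgeR). This fold change was -0.45 without WT replicate 2 and -0.67 without WT replicate 3. The exact permutation test gave p = 0.1, as it must for 3 against 3 libraries without overlap, so it adds nothing to that separation. The input, at 54.2 CPM, stood with the Kat6a-V5 libraries and below all 3 WT libraries. The 95% interval of the Ednra fold, not adjusted for the number of genes, ran from 0.426 to 1.05. An enrichment in Kat6a-V5 over the whole gene beyond 1.05-fold lay outside it.

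Gnaq, which encodes the alpha subunit of Gq (GeneID 14682, chromosome 19, 16132684 to 16388520), had the most reads of the set, from 140 to 833 counts per ChIP library. It had 174, 220 and 253 CPM in Kat6a-V5 and 327, 246 and 229 in WT, with 148 in the input. Kat6a-V5 replicates 1 and 2 lay below every WT library and Kat6a-V5 replicate 3 lay inside the WT range. The log2 fold change was -0.28 (SE 0.19, adjusted p = 0.980 in edgeR), and it moved to -0.12 without WT replicate 1. A transcribed pseudogene inside Gnaq, E030024N20Rik, had 0 counts in all 7 libraries, although its 6361 bp are listed in the table. Gna11, the gene for the alpha subunit of G11 (GeneID 14672, chromosome 10, 81528724 to 81545162), had 20, 5 and 52 counts in Kat6a-V5 against 9, 30 and 44 in WT, and 51 in the input. Kat6a-V5 held both the highest and the lowest of the 6 values, at 24.8 CPM in replicate 1 and 4.39 in replicate 2, and the exact Poisson intervals of these libraries (15.1 to 38.3 and 1.43 to 10.2 CPM) did not overlap. Its log2 fold change of -0.04 (SE 0.70, adjusted p = 0.999 in edgeR) was 0.38 without Kat6a-V5 replicate 2, 0.30 without WT replicate 2, 0.04 without WT replicate 3 and -0.60 without Kat6a-V5 replicate 1. Each of these G protein genes lies beside a paralog. Gna14 starts 47146 bp after Gnaq and had a log2 fold change of 0.21 (SE 0.21, adjusted p = 0.982 in edgeR). Gna15 ends 4276 bp before Gna11 and had 0.86 (SE 0.62, adjusted p = 0.980 in edgeR).

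Plcb3, a phospholipase C beta gene (GeneID 18797, chromosome 19, 6953708 to 6975006), had 16, 28 and 53 counts in Kat6a-V5, 14, 18 and 26 in WT and 51 in the input. In CPM these were 19.8, 24.6 and 16.1 in Kat6a-V5 and 10.9, 13.6 and 10.4 in WT. All Kat6a-V5 libraries lay above all WT libraries, with means of 20.2 ± 4.25 in Kat6a-V5 and 11.6 ± 1.71 in WT (SD, n = 3 each). The log2 fold change of 0.82 (SE 0.62, adjusted p = 0.980 in edgeR) was the largest of the 7. It stayed between 0.66 and 0.99 when each library was left out in turn. An exact permutation test gave p = 0.1, which follows from the lack of overlap and adds nothing to it. The input, at 14.6 CPM, lay between the groups, above every WT and below every Kat6a-V5 library. The deposited length of Plcb3 is 16040 bp, 75.3% of the RefSeq span, and which gene model was counted is not given in the sources used here. A long noncoding gene, Gm52400, not analysed here, overlaps 21.3% of that span.

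Mef2c, a MADS-box transcription factor gene (GeneID 17260, chromosome 13, 83504017 to 83667079), had 81, 180 and 380 counts in Kat6a-V5 and 162, 219 and 327 in WT, with 220 in the input. In CPM it had 100.4, 158 and 116 in Kat6a-V5 and 126, 165 and 131 in WT. Kat6a-V5 replicates 1 and 3 lay below every WT library and Kat6a-V5 replicate 2 inside their range. The log2 fold change was -0.15 (SE 0.24, adjusted p = 0.988 in edgeR), with a 95% interval of the fold from 0.641 to 1.27. It was -0.02 without WT replicate 2 and -0.34 without Kat6a-V5 replicate 2.

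The HAND genes encode basic helix-loop-helix factors and are the shortest of the set, and few reads fell in them. Hand1 (GeneID 15110, chromosome 11, 57828713 to 57832147, 3435 bp) had 2, 3 and 6 counts in Kat6a-V5, 1, 5 and 5 in WT and 8 in the input. Hand2 (GeneID 15111, chromosome 8, 57320983 to 57324517, 3535 bp) had 2, 1 and 17 in Kat6a-V5, 1, 6 and 4 in WT and 12 in the input. The groups overlapped in both genes. Expected counts were taken from an even spread of the library's reads over all genes, with Chl1 and Cdk5rap2 and their reads left out. For Hand2 they were 2.66, 3.82 and 10.9 in the Kat6a-V5 libraries, 4.30, 4.42 and 8.40 in the WT libraries and 11.3 in the input. Each of these lay inside the exact 95% Poisson interval of the observed count, including Kat6a-V5 replicate 3, whose 17 counts allow 9.90 to 27.2. The same held for Hand1 in all 7 libraries. The exact permutation p was 0.7 for Hand2 and 1.0 for Hand1, and the log2 ratios of mean CPM were 0.31 and 0.12. Without Kat6a-V5 replicate 3 or WT replicate 1 the Hand2 ratio was -0.25 or -0.04, and without WT replicate 1 the Hand1 ratio was -0.22. Without WT replicate 2 the ratios rose to 1.13 in Hand2 and 0.69 in Hand1, and without Kat6a-V5 replicate 2 the Hand2 ratio was 0.69. Neither gene was called by DESeq2 or by the fit without a filter on low counts (adjusted p = 1.00 and 0.998 for each gene), and no interval of the difference was computed, so a difference is not excluded by these values.

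**Figure D2:**
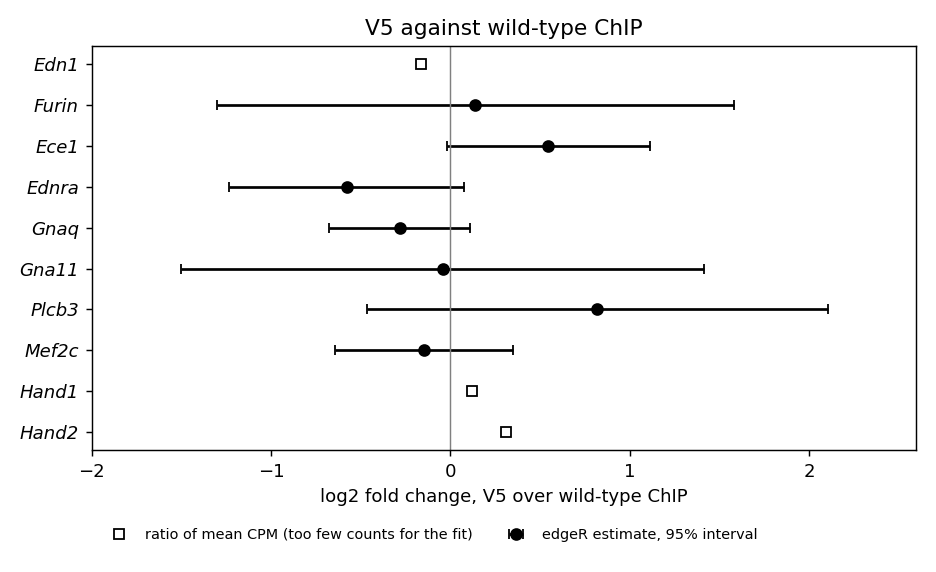
Log2 fold change of Kat6a-V5 over WT ChIP (x axis) for the 10 genes. Filled points are edgeR estimates with 95% intervals for the 7 tested genes, and open squares are ratios of mean CPM for Edn1, Hand1 and Hand2. Every interval includes 0, with Ece1 from -0.02 to 1.11 and Ednra from -1.23 to 0.08.

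The 95% interval of each tested gene, not adjusted for the number of genes, gives the whole-gene folds compatible with the spread between libraries. It is not a detection limit, because a call needed a p-value adjusted over 14575 genes. The folds are relative, after scaling between libraries, so an enrichment shared by most genes would not show in them. The upper end of the 95% interval of the fold was 1.05 in Ednra, 1.08 in Gnaq, 1.27 in Mef2c, 2.16 in Ece1, 2.67 in Gna11, 2.99 in Furin and 4.31 in Plcb3. The SE was 0.19 to 0.32 in Gnaq, Mef2c, Ece1 and Ednra, with 851 to 3063 counts in all 7 libraries, and 0.62 to 0.70 in Plcb3, Furin and Gna11, with 206 to 240. A whole-gene count also averages any local signal with the remaining length of the gene.

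**Figure D3:**
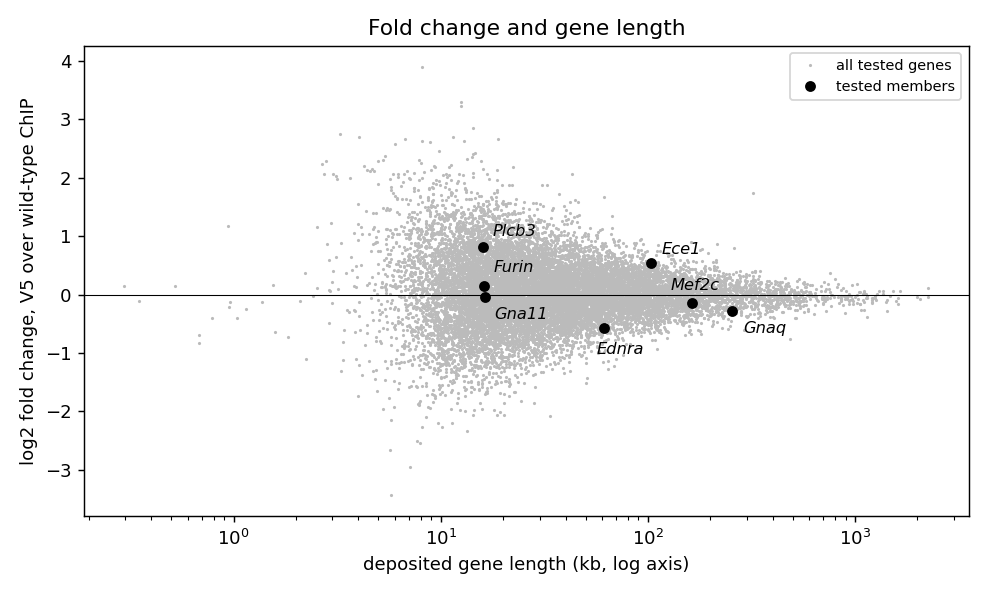
Log2 fold change of Kat6a-V5 over WT ChIP (y axis) against deposited gene length in kb (x axis, log scale) for all tested genes in grey and the 7 tested genes of the set in black. The spread of the grey points narrows with length. Plcb3, Furin and Gna11, with 16040 to 16315 bp, sit in the wide part, and Gnaq, with 254623 bp, sits in the narrow part.

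Coverage per unit of length is given here as reads per kb divided by the mean reads per kb of the library over all genes but Chl1 and Cdk5rap2. Of 70 values (10 genes in 7 libraries) 44 had an exact 95% Poisson interval that included the library mean, 13 lay above it and 13 below. The share over all genes was not computed. The values repeat the same 10 genes in libraries of unequal depth, so the counts only describe the set. All 14 values of Hand1 and Hand2 are among the 44, and their 1 to 17 counts give wide intervals. The mean lies above the typical gene, as the median coverage of all genes but Chl1 and Cdk5rap2 in the input was 0.818. In the Kat6a-V5 group the order ran from Ece1 at 1.48 ± 0.468 and Plcb3 at 1.34 ± 0.272 through Furin, Edn1, Gna11, Gnaq, Ednra, Hand2 and Mef2c to Hand1 at 0.715 ± 0.131 (SD, n = 3). No gene differed from the next in that order by more than the larger SD of the pair. In the WT group the order was Ednra at 1.34 ± 0.217, Edn1, Gnaq, Ece1, Gna11, Furin, Mef2c, Plcb3, Hand2 and Hand1 at 0.672 ± 0.465 (SD, n = 3). The step from Mef2c, at 0.911 ± 0.141, to Plcb3, at 0.766 ± 0.115, was the only one beyond the larger SD of its pair. Mef2c and Gnaq had the lowest coverage of the set in the input, at 0.422 and 0.633.

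**Figure D4:**
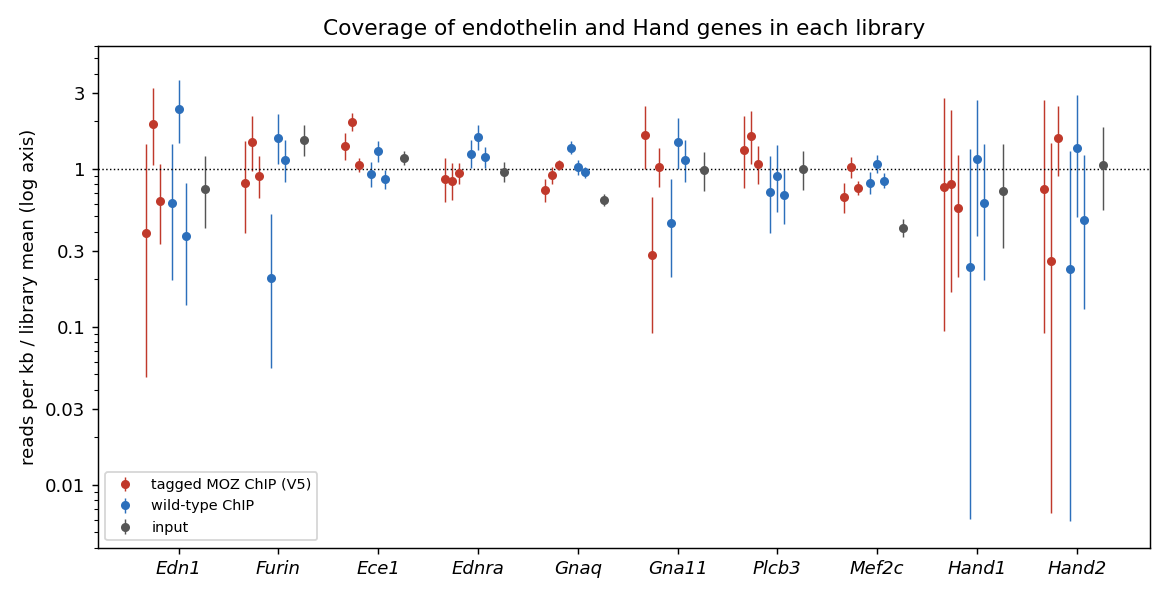
Reads per kb of each gene divided by the mean reads per kb of the library (y axis, log scale, dotted line at 1), one point per library in the order of replicates, with exact 95% Poisson intervals, which cover counting error only. Kat6a-V5 points of Ednra lie below all its WT points, Kat6a-V5 points of Plcb3 above, and the intervals of Hand1 and Hand2 all include 1.

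Against the single input, ChIP reads were higher in Mef2c and Gnaq with or without the tag. All 6 ChIP libraries lay above the input in both genes. How often this happens over all genes was not counted. Among genes over 100 kb, the mean ratio was above the input in 65.2% for Kat6a-V5 and 69.5% for WT. On the log2 scale, from mean CPM after adding 0.5 counts, the ratio to the input in Mef2c stood at 0.99 in Kat6a-V5 and 1.15 in WT, and Gnaq at 0.55 in Kat6a-V5 and 0.86 in WT. The input has no replicate, so no test was made, and both ratios share it. Mef2c had 220 input counts, or 63.1 CPM with an exact 95% Poisson interval of 55.0 to 72.0, and Gnaq had 148 CPM (135 to 161). Genes over 100 kb as a group also had more ChIP than input reads, with median log2 ratios of 0.20 in Kat6a-V5 and 0.21 in WT over 2275 genes. Among them 97.9% had a lower Kat6a-V5 ratio and 99.2% a lower WT ratio than Mef2c. The same shares were 81.2% for Kat6a-V5 and 95.8% for WT in Gnaq, and 66.6% for Kat6a-V5 and 20.8% for WT in Ece1.

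Within each group the other genes of the set had mean ratios closer to the input. Of 8 genes with at least 70 counts in all, Mef2c and Gnaq included, 0 passed 2-fold in Kat6a-V5 and 1, Mef2c, passed it in WT. Over 16736 genes, 9.24% were at least 2-fold higher in Kat6a-V5 and 6.56% in WT. None of the 8 was at least 2-fold lower, beside 8.86% in Kat6a-V5 and 7.25% in WT. In all, 2 of 8 were under the input in Kat6a-V5 (background 47.7%) and 3 of 8 in WT (background 49.9%). Their median log2 ratio was 0.43 in Kat6a-V5 and 0.32 in WT, beside 0.04 and 0.00 for Kat6a-V5 and WT over all 16736 genes. The Kat6a-V5 median was 0.21 without Kat6a-V5 replicate 2, and the WT median was -0.29 without WT replicate 2. Ece1 stood at 0.38 in Kat6a-V5 and -0.14 in WT, Plcb3 at 0.48 in Kat6a-V5 and -0.31 in WT, and Ednra at -0.08 in Kat6a-V5 and 0.52 in WT. In Plcb3 all 3 WT libraries were under the input, and in Ednra all 3 were over it, and the share of all genes with such a pattern was not counted. Furin was under the input in both means, at -0.45 in Kat6a-V5 and -0.58 in WT, with 2 of 3 libraries under it in each group. Its WT ratio was -0.11 without WT replicate 1 and -1.10 without WT replicate 2. Edn1 stood at 0.49 in Kat6a-V5 and 0.65 in WT, from few counts. Its ratios were -0.39 without Kat6a-V5 replicate 2 and -0.46 without WT replicate 2. Gna11 stood at 0.06 in Kat6a-V5 and 0.12 in WT, the latter -0.23 without WT replicate 2.

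**Figure D5:**
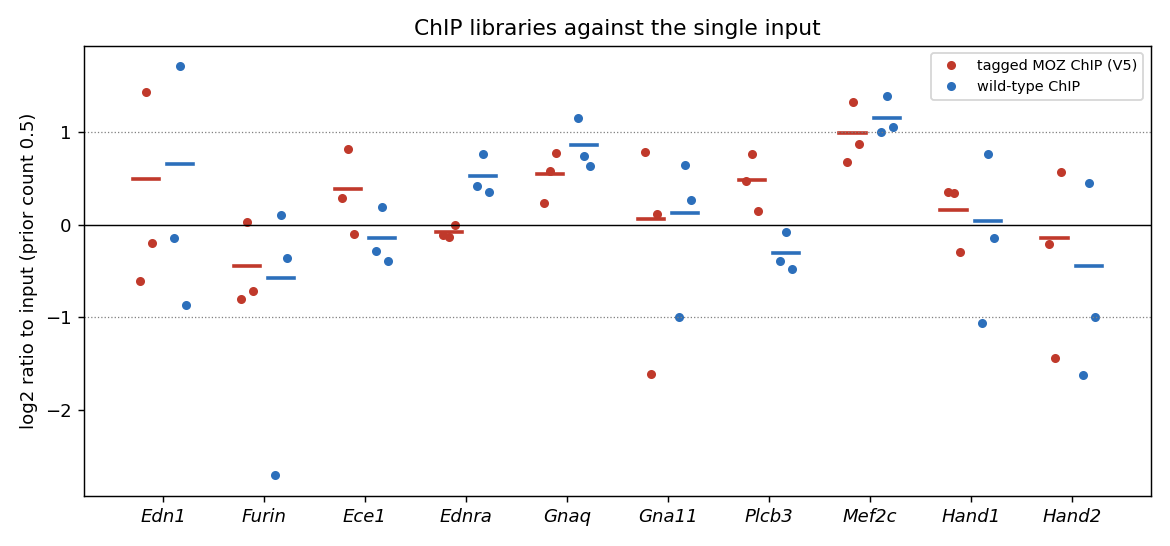
Log2 ratio of each ChIP library to the input (y axis) for the 10 genes, Kat6a-V5 points left of WT points, with bars at the ratio of mean CPM and dotted lines at 2-fold. Both groups lie above the input in Mef2c and Gnaq, and Kat6a-V5 points of Ednra lie at the input while its WT points lie above.

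Other genes of the pathway were counted in 5 lists of 57 genes, of which 41 could be tested. Of these, 0 passed an adjusted p of 0.05 in either direction with edgeR's quasi-likelihood test. An unadjusted p under 0.05 was found in 2 of the 41, beside 4.12% of all tested genes. A positive log2 fold change was found in 23, beside 52.0% of all tested genes. The groups did not overlap upward in 2 and downward in 1 of the 41, beside 4.83% and 5.27% of all tested genes. Among list genes under the count filter, Ecel1, Dlx3 and Gsc were separated upward, from few counts, and none downward. The share among all genes under the filter was not computed. In the endothelin system list (other ligands, receptors and proteases) 5 of 7 tested genes were positive, with a median of 0.42. Pcsk6, a proprotein convertase gene, had 181 ± 28.9 CPM in Kat6a-V5 and 132 ± 11.2 in WT (SD, n = 3 each) with no overlap, a log2 fold change of 0.48 (SE 0.21, adjusted p = 0.980 in edgeR), and Ece2, a relative of Ece1, had 0.69 (SE 0.47). Of the G protein and phospholipase genes 9 of 16 were positive, with a median of 0.08. Itpr2, an inositol trisphosphate receptor gene, had -0.22 (SE 0.15), beside Gna15 given above.

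The list of other MEF2 factors and the class IIa deacetylases that repress them had 1 of 7 positive and a median of -0.20, and no gene of it had an unadjusted p under 0.05. Hdac9 had -0.20 (SE 0.21) and Hdac4 had -0.18 (SE 0.19) with means of 171 ± 9.52 CPM in Kat6a-V5 and 198 ± 7.99 in WT (SD, n = 3 each) and no overlap. Of 19 target genes of the lower and upper jaw only 7 had enough counts, and 5 of these were positive, with a median of 0.15. Plagl1, a zinc finger gene, had 51.8 ± 16.1 CPM in Kat6a-V5 and 25.2 ± 12.4 in WT (SD, n = 3 each), with Kat6a-V5 replicate 3 barely above WT replicate 2, and the log2 fold change, 1.05 (SE 0.47), was not past the threshold (adjusted p = 0.980 in edgeR). Alx4, a homeobox gene, had -0.80 (SE 0.48). Of the genes for proteins that pair with HAND factors, 3 of 4 tested were positive, with a median of 0.25, and Tcf3 had 0.75 (SE 0.48) and Tcf12 -0.20 (SE 0.18).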

How the data were processed

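The files hold whole-number read counts per gene with a gene identifier and a gene length, as deposited by the authors, per the file headers. The table of all libraries and the 7 per-library files held identical counts. Per the submitters' processing notes bcl2fastq, featureCounts, MACS and build mm10 were used; no source used here names the aligner, duplicate handling or strand setting. The deposited length, another column per the file headers, was used for coverage, and 1 gene without a positive length was left out of it. Chl1, with 5.97% of the input counts, and Cdk5rap2 were left out of the library mean of coverage.

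Symbols were matched by identifier to RefSeq GRCm38.p6 (25275 of 27179). Kat6a-V5 and wild-type (WT) ChIP counts were compared over the whole table by the quasi-likelihood test of edgeR 4.0.16 (R 4.3.3, TMM scaling, filterByExpr at 10 counts, robust glmQLFit, two-sided, Benjamini-Hochberg over 14575 genes), and tested on simulated data. Standard errors came from the quasi-likelihood F. Genes below the filter had an exact permutation test, which is also given for Ednra and Plcb3. Input ratios used genes with at least 70 counts and a prior count of 0.5. Poisson intervals cover counting error only, and a gene at 0 could have had 3 counts, or 0.860 to 3.72 CPM. Counts differed beyond sampling noise between all libraries (lowest chi-square per degree of freedom 4.17). The members and lists were chosen with earlier results of these data known. Named genes are the 10 members, 2 per list by smallest p, and 3 genes most like the member of smallest p. Genes beside or inside members, and list genes under the filter without overlap of the groups, are also named. Alternatives were DESeq2 1.42.0, limma-voom (limma 3.58.1), the likelihood ratio test, relative log expression scaling, no count filter, totals without Chl1 and Cdk5rap2, a replicate block, a prior count of 2 and leaving out each library. Peaks were not analysed here.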

Additional observations from a re-analysis of the deposited data

How the results depend on the processing

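No member was called under any alternative for the Kat6a-V5 against WT comparison, and the lowest adjusted p of a member was 0.450, for Ece1 without Kat6a-V5 replicate 3. Over the whole table the count of called genes, 0 in the reported fit, was 9 without a filter on low counts, 4 with limma-voom and 0 to 2 when each library was left out, while DESeq2, the likelihood ratio test, relative log expression scaling and totals without Chl1 and Cdk5rap2 gave 0. With the replicate number as a block the count was 1. The labels do not say whether same-numbered Kat6a-V5 and WT libraries share more than a number. The correlations of their deviations were 0.01, 0.01 and 0.06 for numbers 1 to 3. Kat6a-V5 replicate 3 correlated best with its own number, and Kat6a-V5 replicates 1 and 2 did not. Counting noise can hide a shared source in these libraries, so no conclusion on a pairing is drawn. Of 118 member fold changes under alternatives 107 kept their sign. The 11 others came from leaving out a library, with log2 ranges of -1.05 to 0.95 in Edn1, -0.33 to 0.63 in Furin, -0.60 to 0.38 in Gna11, -0.22 to 0.69 in Hand1 and -0.25 to 1.13 in Hand2. When each library was left out, the median log2 fold change of the tested members ranged from -0.22 to 0.30, the median Kat6a-V5 ratio of the members to the input from 0.21 to 0.50, and the median WT ratio from -0.29 to 0.52. The cause was not tested. Depth limits Edn1, Hand1 and Hand2, which have 76, 30 and 43 counts in all 7 libraries together.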
